A study of Homo sapiens with 5 samples.

Results

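The genes described are the protein subunits of the respiratory chain and ATP synthase, taken from both genomes of the cell. Members were the protein-coding genes whose symbol starts with NDUFA, NDUFB, NDUFC, NDUFS, NDUFV, UQCR, ATP5, COX4, COX5, COX6, COX7 or COX8, the gene CYC1, and the mitochondrial genes MT-ND, MT-CO, MT-CYB and MT-ATP, without the NDUFAF assembly factors. The rule named 100 genes in the annotation, of which 92 had a row among the 13822 genes of the table. Of these 92, 79 lie in the nuclear genome and 13 in the mitochondrial genome. The 8 names without a row were not analysed here: COX4I2, COX6A2, COX6B2, COX7B2, COX8C, ATP5MGL and the readthrough genes ATP5MF-PTCD1 and NDUFC2-KCTD14.

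RH4 is a cell line of alveolar rhabdomyosarcoma (ARMS), a childhood tumour with features of skeletal muscle. The study asked what depletion of circVAMP3, a circular RNA made from the VAMP3 gene, changes in these cells. In the si-SCR group (3 libraries) RH4 cells received a control siRNA, and in the si-circVAMP3 group (2 libraries) a siRNA to the back-splice junction of circVAMP3, each at 30 nM with Dharmafect-1, with new medium 24 h after transfection and harvest another 24 h later. Poly-A RNA was sequenced, and levels are given as FPKM, fragments scaled to the length of the gene and the size of the library. Both groups are 1 cell line grown as biological replicates, so p-values measure the spread between cultures of RH4 and not between tumours. The whole reads recovered from the table numbered 26378915, 24987037 and 24873850 for si-SCR 1, 2 and 3 and 37161779 and 28750385 for si-circVAMP3 1 and 2. Those of si-circVAMP3 1 were even for every subunit, so their scale may be 2 times too high. The rank of this library by size is therefore uncertain, and FPKM, the deposited values, do not rest on it.

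The respiratory chain sits in the inner mitochondrial membrane. Complex I takes electrons from NADH, complex II from succinate, coenzyme Q and cytochrome c carry them to complex III and complex IV, and complex IV passes them to oxygen. Complexes I, III and IV pump protons, and ATP synthase (complex V) uses the return flow of protons to make ATP. Most subunits come from nuclear genes and are imported into the organelle, while a small core of membrane subunits of complexes I, III, IV and V is transcribed from the mitochondrial genome as long precursors of both strands that are then cleaved at the tRNAs, so the members of 1 complex have to be made in separate compartments.

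The siRNA is shown first because every comparison rests on it and because some subunit mRNAs share bases with it. Capitals in the listed strand mark the bases that match those mRNAs, and capitals in its complement mark the seed, bases 2 to 8 from its 5′ end. The study's list does not say which strand is the guide; the complement was taken as the guide here, and the matches below rest on that.
si-circVAMP3, strand as listed: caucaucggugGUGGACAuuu
Complement of its first 19 bases: aUGUCCACcaccgaugaug
The listed strand has the sense of VAMP3 mRNA: the run GGTGGTGGACAT, which ends the first 19 bases, lies at position 160 of the canonical VAMP3 transcript, and the run CATCATCG, which opens the siRNA, at position 364, with 1 base counted in both. The circular RNA itself has no row, since the values are per gene, and its depletion cannot be read from them. FPKM of the VAMP3 gene, which counts its linear mRNA, were 36.4, 35.4 and 37.4 in si-SCR and 29.4 and 30.2 in si-circVAMP3. Both si-circVAMP3 libraries were below all si-SCR libraries (log2 fold change -0.29, SE 0.04, limma adjusted p = 0.0047).

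The 7 bases that pair with the seed, GTGGACA, were looked for on the sense strand of the canonical GENCODE transcripts. Among 10263 protein-coding genes tested, 31.0% held them, against 52.8% of those that fell, 75.4% of the 281 that fell by over 0.58 on the log2 scale, and 17.6% of those that rose. The median transcript lengths of these groups were 3396, 3811, 3581 and 2797 bases. Of the 79 nuclear subunits, whose canonical transcripts are short with a median of 744 bases, 6 held the match (7.59%), and of the 13 mitochondrial subunits 0. The 2 subunits with a match that passed the test, NDUFB2 and ATP5PF, both fell. The match, in capitals, lies within a coding exon in both of them, at chr7:140704877-140704906 on the plus strand and chr21:25729648-25729677 on the minus strand of GRCh38.
NDUFB2: tgatccttcccaGTGGACAgatgaagaatt
ATP5PF: cagaaactctttGTGGACAagattagagaa
The other members with a match, NDUFS7 and NDUFV3 in the coding sequence and NDUFA9 and NDUFB6 in the 3′ UTR, had log2 fold changes of 0.12, 0.02, -0.02 and 0.14 and did not pass the test. A match of 7 bases is a description of the transcript, and whether the siRNA pairs with any of these mRNAs was not tested.

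The libraries carried the markers of their label. Of 8 muscle lineage genes, 7 had a row and all 7 passed the filter on low values. DES, the intermediate filament of muscle, was at 291, 291 and 249 FPKM in si-SCR and 266 and 248 in si-circVAMP3, and MYOD1, a master regulator of the lineage, at 115, 105 and 84.3 and at 106 and 127. MYOG, a factor of muscle differentiation, was lower in si-circVAMP3 at 101 and 96.6 against 175, 179 and 149 (log2 fold change -0.76, SE 0.08, limma adjusted p = 0.0015), and so was CHRNG, a fetal acetylcholine receptor subunit, at 9.34 and 8.77 against 13.9, 14.0 and 13.7 (-0.59, SE 0.05). PAX3, CDH15 and MYMK did not pass the test, and MYF6 was not analysed here. Without si-SCR 3, 4 of the 7 were lower, DES (log2 fold change -0.18) and CDH15 (-0.53) being added. Of 10 markers of other cell types, 3 had a row, COL1A1, KRT8 and PECAM1, and the 3 summed to 0.670, 0.503 and 0.461 FPKM in si-SCR and 0.964 and 0.889 in si-circVAMP3. The most abundant, the epithelial keratin KRT8, was at 0.316, 0.215 and 0.256 and at 0.6508 and 0.5803, with the si-circVAMP3 libraries above the others. All 3 were under the filter, and with no filter on low values 1 of the 3, KRT8, was higher (log2 fold change 0.55, limma adjusted p = 0.0052). The part of other cell types in the results was not tested.

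One control library stood apart. Over the genes tested, the first principal component (68.6% of the variance) separated the groups and the second (17.8%) set si-SCR 3 against si-SCR 1 and 2. The log2 difference of si-SCR 3 from the mean of si-SCR 1 and 2 had a Spearman correlation with the GC content of the transcript of -0.48 over 11226 genes, a description over genes of the same libraries, beside 0.063 for si-SCR 1 minus si-SCR 2 and -0.072 for si-circVAMP3 1 minus 2. Over the 78 nuclear subunits tested the same 3 values were -0.31, -0.23 and -0.23. Of the 9 nuclear subunits whose transcript has over 60% GC, 8 were lower in si-SCR 3 than in both other si-SCR libraries and 1, CYC1, higher: NDUFB7, with 64.9% GC, was at 101 and 92.0 FPKM in si-SCR 1 and 2 and at 61.7 in si-SCR 3, and NDUFA11, with 62.3% GC, at 9.63, 8.74 and 5.53, while CYC1, with 61.5% GC, was at 91.2, 102.6 and 102.9. The log2 difference between the groups had a correlation with GC content of 0.16 over the genes and 0.05 over the subunits.

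Across the chain, few subunits moved and most of those by little. Of the 92 members, 91 passed the filter on low values (at least 1 FPKM in 2 libraries or more), NDUFA4L2 being the exception. By limma on log2(FPKM + 0.5), 7 of 78 nuclear subunits were higher in si-circVAMP3 and 9 lower, and of the 13 mitochondrial subunits 0 were higher and 1 lower, at an adjusted p under 0.05 over all 11253 genes tested. Together 17 of 91 subunits (18.7%) passed the test, where 32.7% of all genes tested did, 15.9% as higher and 16.8% as lower. The median log2 fold change was -0.003 for nuclear subunits and -0.13 for mitochondrial subunits, beside 0.01 for all genes tested. Only NDUFB2 was also past the study's fold threshold of 0.58, where 3.9% of all genes tested were past both. FPKM of the groups did not overlap for 39 of the 91 subunits, 17 with si-circVAMP3 above and 22 below, and this held for 59.9% of all genes tested. RNA was extracted from whole cultures, so fewer cells with a transcript and less of it per cell cannot be told apart.

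The counts depended on single libraries. Without si-SCR 3, 15 nuclear subunits were higher and 7 lower: NDUFA13, NDUFB1, UQCR11 and ATP5PO no longer passed, and 9 others passed as higher (NDUFS5, NDUFA4, UQCRH, COX4I1, COX6B1, ATP5F1B, ATP5F1C, ATP5F1E and ATP5MF) and 1 as lower (NDUFB7). Without si-SCR 1 these counts were 4 and 3, without si-SCR 2 they were 4 and 5, without si-circVAMP3 1 they were 2 and 2, and without si-circVAMP3 2 they were 0 and 2. When values were scaled to the sum of FPKM outside the mitochondrial genome, 4 nuclear subunits were higher and 13 lower, and 3 mitochondrial subunits lower. Of the 17 members called, 7 also passed without si-SCR 1 (ATP5MC1, ATP5PF, COX5B, NDUFA2, NDUFB11, NDUFB2 and NDUFS3), 9 without si-SCR 2, 13 without si-SCR 3, 4 without si-circVAMP3 1 (ATP5PF, NDUFA2, NDUFB11 and NDUFB2) and 2 without si-circVAMP3 2 (ATP5PF and NDUFB2). NDUFB2 and ATP5PF were the 2 members that passed under all 15 alternative settings, the other 15 passed in 6 to 14 of them, and 0 of the 17 changed direction in any.

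**Figure D1:**
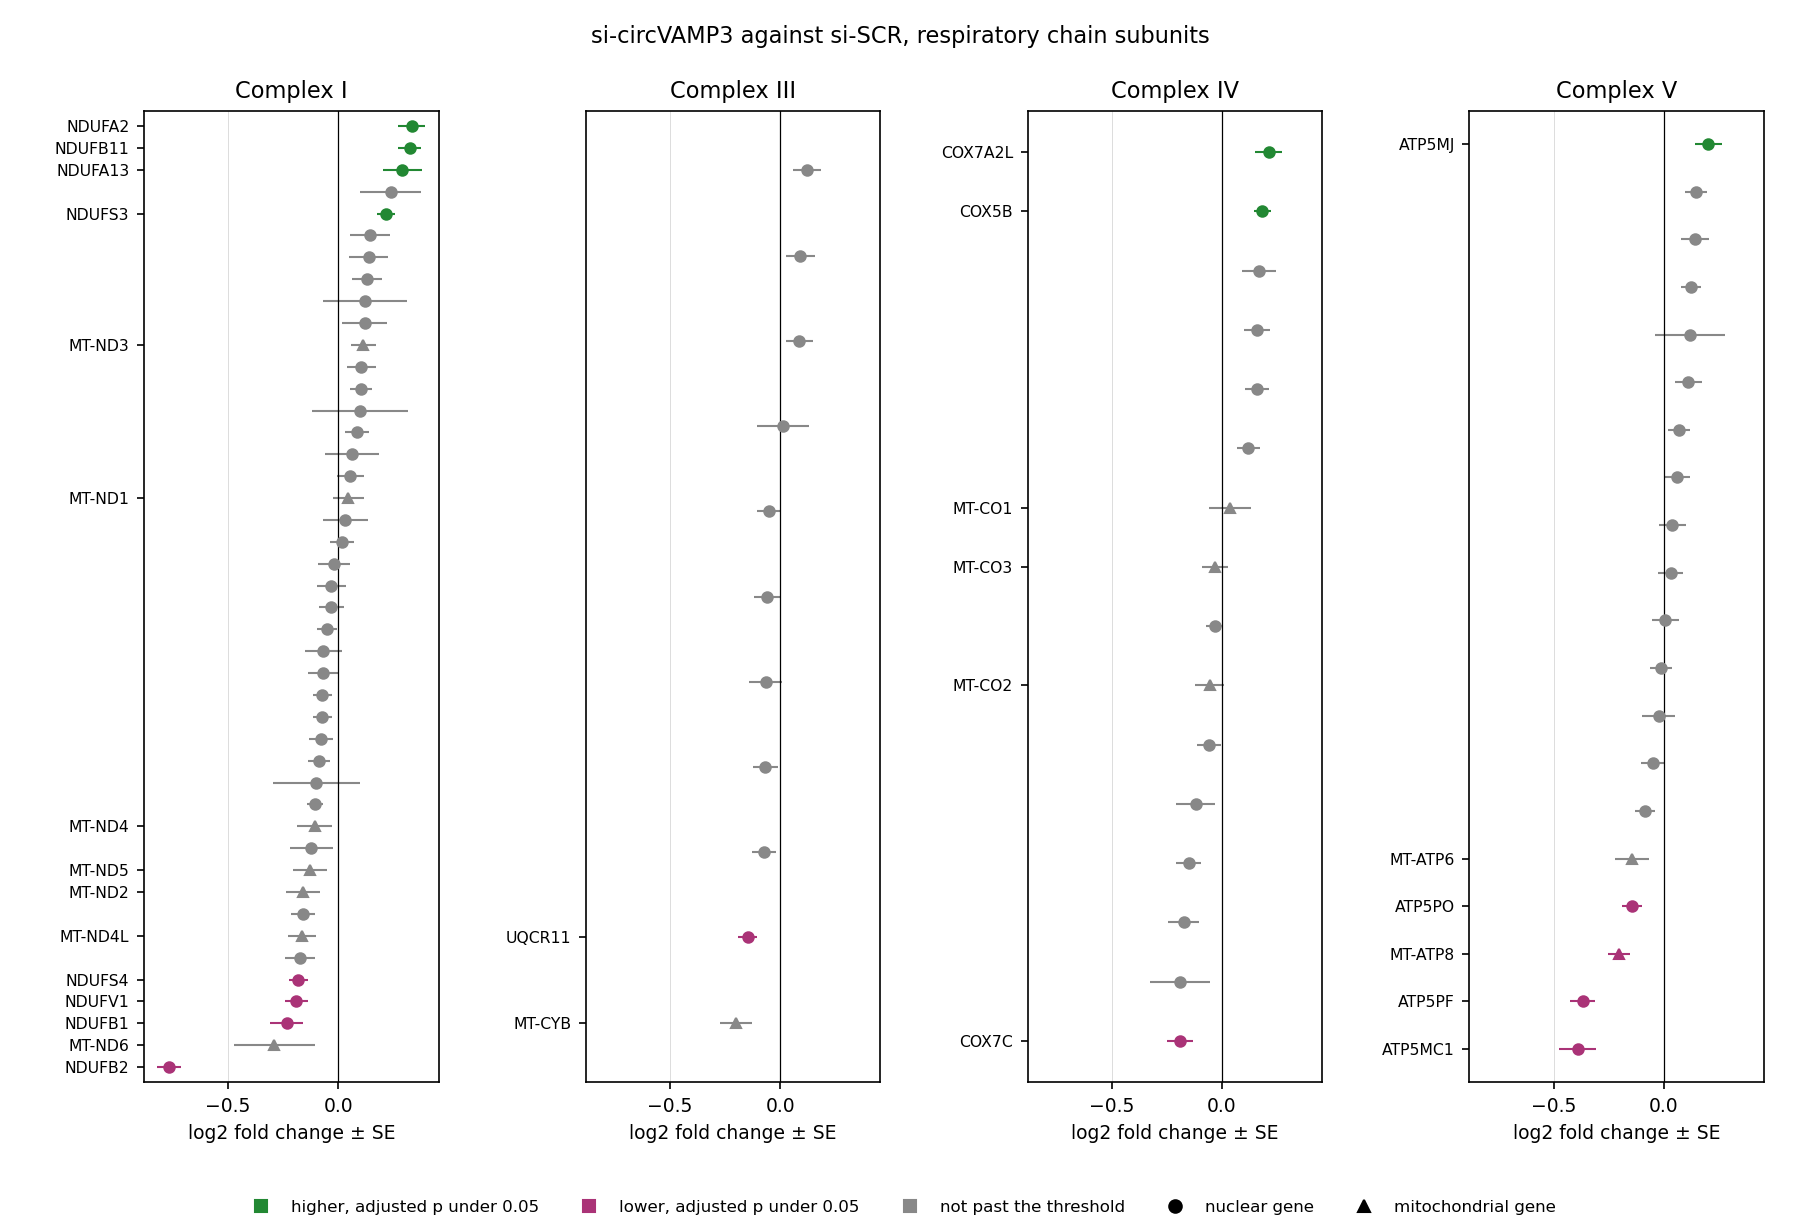
Log2 fold change of si-circVAMP3 against si-SCR (x axis, on the log2(FPKM + 0.5) scale, bars are 1 SE of the limma fit) for the 91 subunits tested, by complex. Green marks the 7 subunits that rose, purple the 10 that fell, grey those that did not pass the test, and triangles the 13 mitochondrial genes. Subunits that passed the test and mitochondrial genes carry their names; NDUFB2 at -0.77 lies farthest from 0.

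Levels spanned over 4 orders of magnitude between members. Nuclear subunits ran from 0.343 FPKM (NDUFA4L2) to 627 (ATP5F1B), with a median of the members' means of 37.2, and mitochondrial subunits from 86.4 (MT-ND6) to 10184 (MT-CO3), with a median of 2896. Highest among nuclear members of complex I were NDUFS5 (mean of the 5 libraries 387 FPKM), NDUFA1 (230) and NDUFB7 (82.0). In complex III they were UQCRH (198), CYC1 (97.3), the cytochrome that hands electrons to cytochrome c, and UQCR10 (73.9). In complex IV they were COX8A (229), COX6B1 (169) and COX6A1 (139), and in complex V ATP5F1B (588), the catalytic beta subunit, ATP5PB (146) and ATP5MK (121).

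The length behind FPKM limits this order. As recovered from the values, it equals the length of all annotated exons of the gene together for 61 of the 79 nuclear subunits and for all 13 mitochondrial ones. It was a median of 2.4 times the canonical transcript for nuclear subunits and over 5 times for 13 of them, while for the mitochondrial genes the ratio is 1. For NDUFB2, whose level is given over 4447 bases against 465 in its canonical transcript, the printed FPKM is therefore low for its read number. Over the 92 members, levels per these lengths and levels per canonical transcript had a Spearman correlation of 0.89. Per canonical transcript NDUFS5, UQCRH and ATP5F1B stayed the highest nuclear members of their complexes in si-SCR. COX8A (240) then lay below COX6B1 (452) and COX4I1 (451), and ATP5MC2 (507) above ATP5PB (175). Differences between libraries for 1 gene do not depend on that length.

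**Figure D2:**
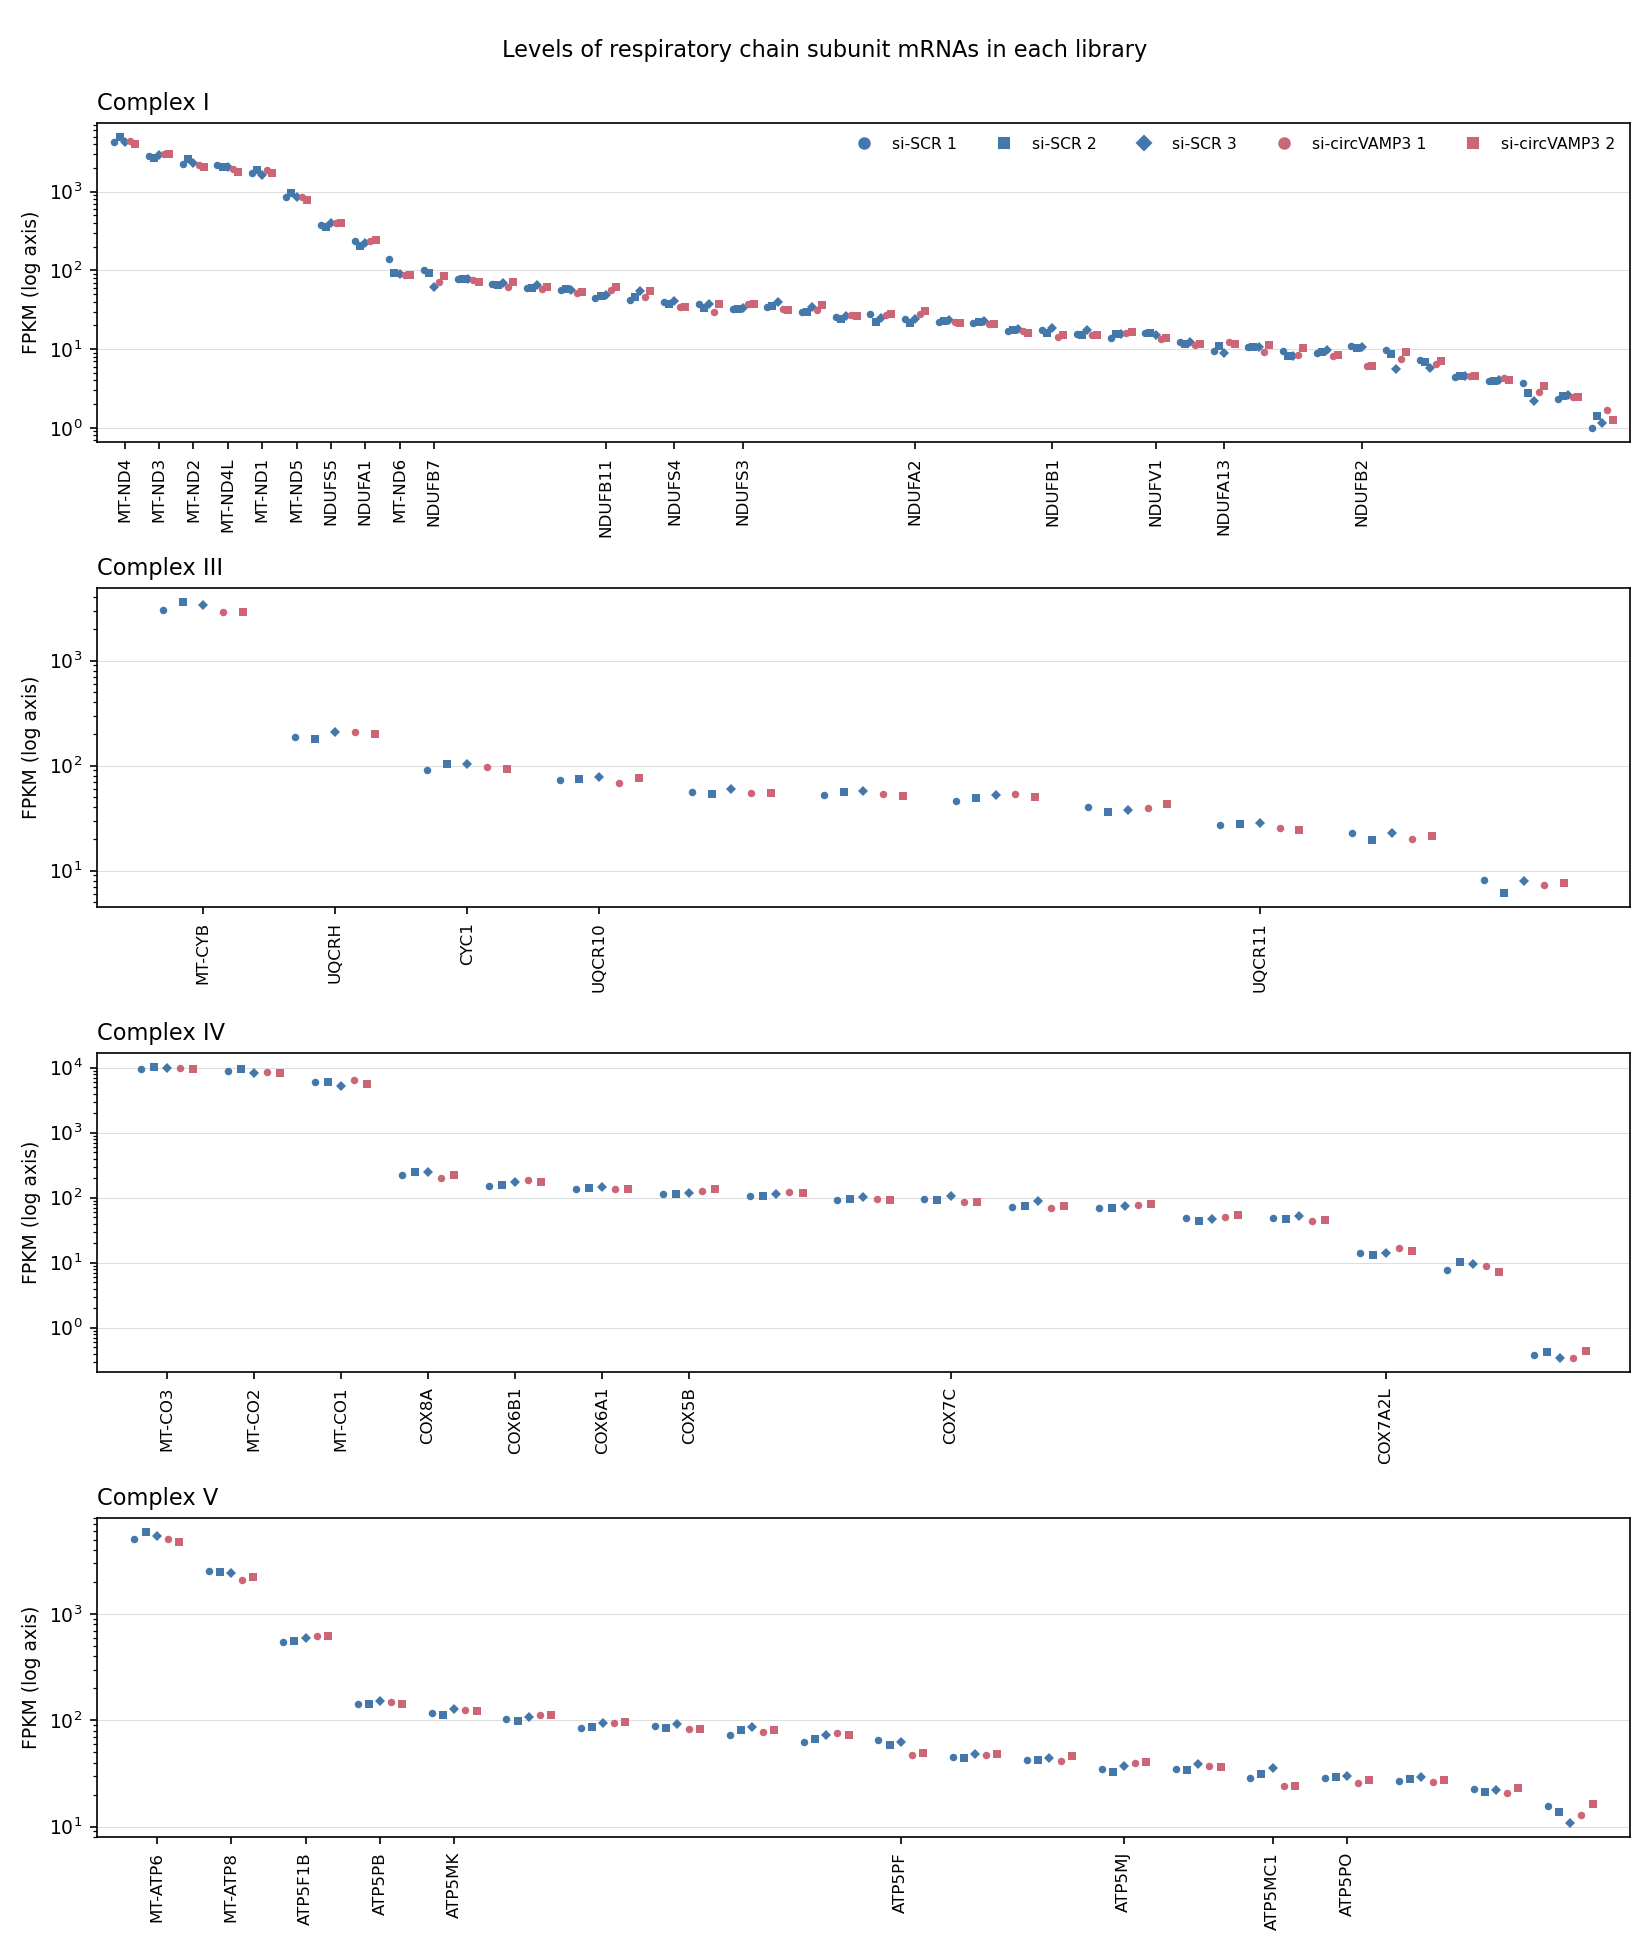
FPKM of each of the 92 subunits in each of the 5 libraries (y axis, log scale), by complex and ordered by mean level, with names for mitochondrial genes, subunits that passed the test and the 3 highest nuclear members of each complex. Blue points are si-SCR and red points si-circVAMP3; the mitochondrial genes lead each complex, and in complex I MT-ND6 sits among the nuclear subunits.

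Complex I held the subunit with the largest change among those tested. NDUFB2 (ENSG00000090266, chr7:140690777-140722790, GRCh38), an accessory subunit of the membrane arm, was at 11.1, 10.2 and 10.7 FPKM in si-SCR 1, 2 and 3 and at 6.10 and 6.02 in si-circVAMP3 1 and 2. The values of each group lay close together and well apart from those of the other. The mean fell from 10.7 ± 0.427 (SD, n = 3) to 6.06 ± 0.0584 (SD, n = 2), a change of -43.2% (log2 fold change -0.77, SE 0.05). The adjusted p of limma was 0.00041, and between 4.8e-05 and 0.0099 over the alternative settings.

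Of the 37 nuclear subunits of complex I, 4 rose and 4 fell (0 to 4 and 1 to 4 with libraries left out). With values scaled to the sum outside the mitochondrial genome, 3 rose and 7 fell. NDUFB11, an accessory subunit of the membrane arm encoded on the X chromosome, was at 45.1, 46.7 and 48.2 FPKM in si-SCR and at 56.3 and 60.8 in si-circVAMP3. NDUFA2, an accessory subunit of the matrix arm, was at 24.0, 21.6 and 23.8 and at 28.3 and 30.3. Both si-circVAMP3 libraries lay above all si-SCR libraries for each, with log2 fold changes of 0.32 (SE 0.05, limma adjusted p = 0.0055) and 0.33 (SE 0.06, limma adjusted p = 0.0087). Without si-circVAMP3 2 the adjusted p of limma was 0.052 and 0.076, the highest over all settings.

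Among the nuclear core subunits 1 rose and 1 fell. NDUFS3 was at 32.1, 32.0 and 33.3 FPKM in si-SCR and at 37.9 and 37.6 in si-circVAMP3 (log2 fold change 0.21, SE 0.04, limma adjusted p = 0.0098). NDUFV1, the subunit that binds NADH and the flavin, was at 16.2, 16.1 and 14.9 and at 13.6 and 13.9 (-0.19, SE 0.05, limma adjusted p = 0.035). The highest adjusted p of limma over the alternative settings was 0.075 for NDUFS3 and 0.175 for NDUFV1.

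Among the other accessory subunits NDUFS4 fell from 39.8, 38.0 and 40.3 FPKM to 34.5 and 34.7 (log2 fold change -0.18, SE 0.04) and kept this call in 11 of 15 alternative settings. NDUFB1 was at 17.6, 15.8 and 18.5 against 14.1 and 15.1 (-0.23, SE 0.07, limma adjusted p = 0.049), and NDUFA13, known also as GRIM-19, at 9.36, 10.9 and 8.91 against 12.4 and 11.5 (0.29, SE 0.09, limma adjusted p = 0.047). The last pair was close to the threshold and kept its calls in 7 and 6 of 15 alternative settings, neither gene passing without si-SCR 3. Exons of NDUFA13 overlap those of YJEFN3 and 1 other gene on the same strand over 21.0% of their bases, where the counting could leave reads out. NDUFA7 also shares 32.5% of its exon bases with another gene and was near the filter, at 0.997 to 1.71 FPKM. The shared part was larger for NDUFB8 (33.8%) and for COX8A of complex IV (35.4%), so the same limit holds for their levels.

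In complex III 1 of 10 nuclear subunits passed the test, as lower, and with libraries left out 0 to 1 rose and 0 fell. UQCR11, a small subunit near the iron-sulfur protein, was at 27.0, 28.0 and 28.3 FPKM in si-SCR and 25.5 and 24.5 in si-circVAMP3 (log2 fold change -0.15, SE 0.04, limma adjusted p = 0.044), and kept this call in 8 of 15 alternative settings and in none with a library left out. CYC1 and the Rieske protein UQCRFS1, the nuclear redox subunits, had log2 fold changes of -0.06 and -0.07 and did not pass. UQCRH was at 188, 181 and 209 FPKM and at 208 and 201, and its near-identical intronless copy UQCRHL at 8.10, 6.13 and 8.04 and at 7.33 and 7.57. UQCRH passed as higher without si-SCR 3 (0.15). Reads that fit both copies cannot be assigned to either, so these levels are uncertain.

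In complex IV 2 of 13 nuclear subunits tested rose and 1 fell (0 to 5 and 0 to 1 with libraries left out). On the scale of the sum outside the mitochondrial genome, 1 rose and 2 fell. COX5B, a subunit on the matrix side, was at 115, 114 and 117 FPKM in si-SCR and at 128 and 134 in si-circVAMP3 (log2 fold change 0.18, SE 0.04, limma adjusted p = 0.015). COX7A2L, which joins complexes III and IV in supercomplexes, was at 13.9, 12.9 and 14.0 and at 16.6 and 15.1 (0.21, SE 0.06, limma adjusted p = 0.041). COX7C was lower, at 97.1, 93.1 and 106 against 86.2 and 86.3 (-0.19, SE 0.06, limma adjusted p = 0.048). The highest adjusted p of limma over the alternative settings was 0.12 for COX5B, 0.24 for COX7A2L and 0.19 for COX7C.

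Subunits of complex IV come in forms that differ between tissues. The form of COX7A found in most tissues, COX7A2, was at 92.6, 94.8 and 103 FPKM in si-SCR and at 94.5 and 91.1 in si-circVAMP3, and the heart and muscle form COX7A1 at 7.61, 10.2 and 9.65 and at 8.75 and 7.11. COX4I1 was at 68.4 to 78.5, COX6A1 at 136 to 145 and COX6B1 at 150 to 189. COX8A was at 200 to 252 and COX7B at 44.4 to 53.2. COX4I1 and COX6B1 passed as higher without si-SCR 3 (0.16 and 0.23). They also passed with a replicate block, which gives the same fold changes, since replicate 3 exists in si-SCR alone. COX7B passed as lower when scaled to the sum outside the mitochondrial genome (-0.20). Partners of these genes, COX4I2, COX6A2, COX6B2, COX8C and COX7B2, were not analysed here. NDUFA4, a peripheral subunit of complex IV in spite of its name, was at 105, 105 and 115 and at 122 and 120, with the groups apart, and did not pass the test (0.16, SE 0.05, limma adjusted p = 0.064). It passed without si-SCR 3 (0.20, limma adjusted p = 0.0084) and in limma voom. It also passed with a replicate block, where its fold change is the same as without si-SCR 3. Its paralogue NDUFA4L2 was at 0.343 to 0.433.

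In complex V 1 of 18 nuclear subunits rose and 3 fell (0 to 5 and 1 to 2 with libraries left out). The scaling to the sum outside the mitochondrial genome gave 0 higher and 3 lower. ATP5MC1 (ENSG00000159199, chr17:48892765-48895871), 1 of 3 genes for the same mature c subunit of the rotor ring, was at 28.4, 31.5 and 35.2 FPKM in si-SCR and 23.9 and 24.1 in si-circVAMP3. Both si-circVAMP3 libraries were below the lowest si-SCR library (log2 fold change -0.39, SE 0.09, limma adjusted p = 0.016, at most 0.095 over the alternative settings). ATP5MC2, at 73.0 to 86.9, and ATP5MC3, at 34.3 to 38.6, had log2 fold changes of -0.02 and 0.04 and did not pass the test.

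The stator stalk held 2 of the 3 that fell. ATP5PF (ENSG00000154723, chr21:25716503-25735673), also called coupling factor 6, was at 65.8, 59.1 and 62.6 FPKM in si-SCR and 46.8 and 49.7 in si-circVAMP3. The mean changed by -22.7%, from 62.5 ± 3.34 (SD, n = 3) to 48.3 ± 2.09 (SD, n = 2), with a log2 fold change of -0.37 (SE 0.06, limma adjusted p = 0.0050). Over the alternative settings the fold change of ATP5PF lay between -0.415 and -0.325, and in the weakest setting its call was right at the threshold. ATP5PO, the subunit that ties the stalk to the catalytic head and a transcript the study used as a negative control in another assay, was at 28.8, 29.2 and 29.8 and at 25.6 and 27.2 (-0.15, SE 0.05, limma adjusted p = 0.049), and kept this call in 7 of 15 alternative settings and in none with a library left out. ATP5PB and ATP5PD, the other stalk subunits, had log2 fold changes of -0.01 and -0.05.

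ATP5MJ, a small membrane subunit, rose from 35.0, 32.8 and 37.5 FPKM to 40.0 and 40.8 (log2 fold change 0.20, SE 0.06, limma adjusted p = 0.044). It kept this call in 8 of 15 alternative settings and lost it in both scalings to a sum, without an intensity trend, and without si-SCR 1, si-SCR 2, si-circVAMP3 1 or si-circVAMP3 2. Of the catalytic head, ATP5F1B was at 543, 556 and 592 in si-SCR and at 627 and 619 in si-circVAMP3, and ATP5F1A at 44.8, 43.8 and 48.0 and at 47.0 and 48.5. Neither passed the test, though the groups did not overlap for ATP5F1B (0.15, SE 0.05, limma adjusted p = 0.062). ATP5F1B passed it without si-SCR 3 and in limma voom. The inhibitor ATP5IF1, which blocks the enzyme when it runs in reverse, was at 20.8 to 23.3 with a log2 fold change of 0.01.

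**Figure D3:**
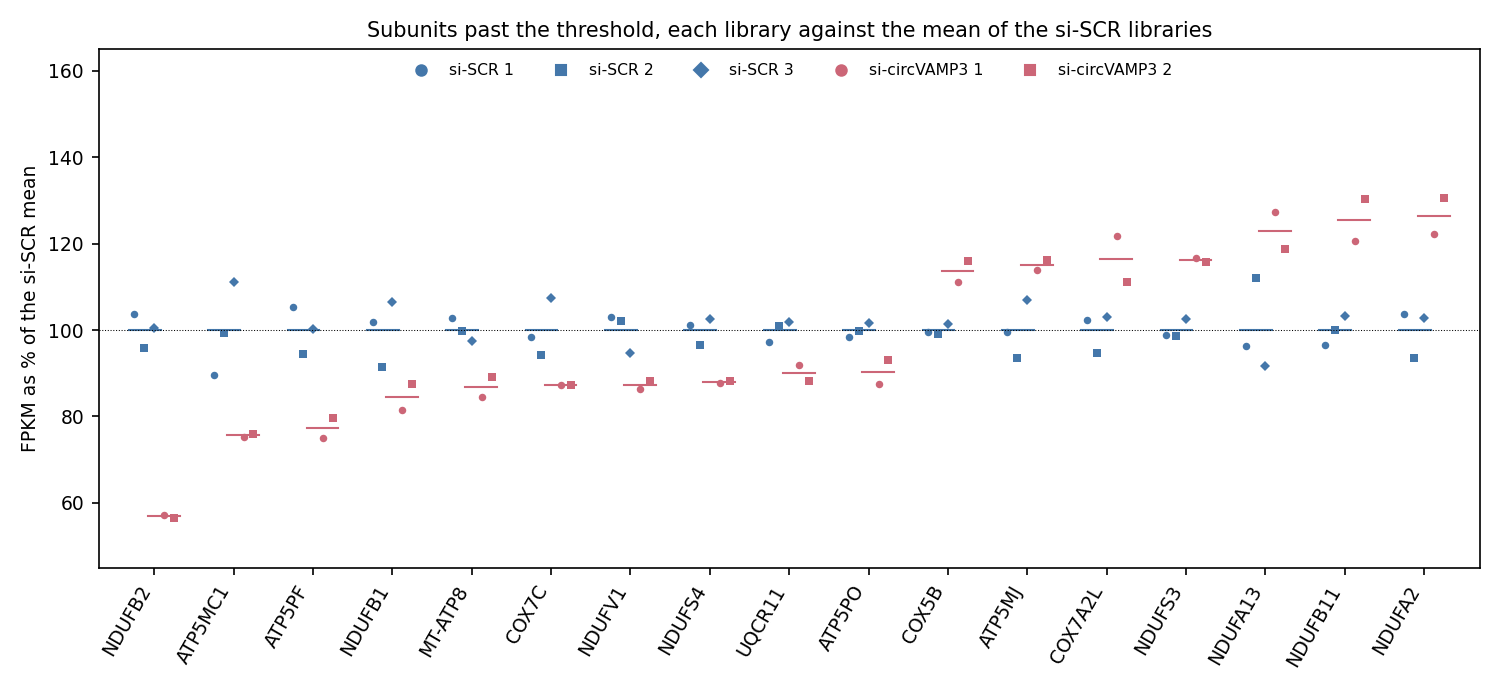
FPKM of the 17 subunits past the threshold in each library, as a percentage of the mean of the 3 si-SCR libraries (y axis; the dotted line is 100%), ordered by log2 fold change. Short lines are group means; both si-circVAMP3 points lie outside the si-SCR points for every gene plotted, widest for NDUFB2 with a change of -43.2%.

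The 13 protein-coding genes of the mitochondrial genome took 4.40%, 4.71% and 4.28% of the reads in si-SCR and 4.40% and 4.11% in si-circVAMP3, and 17.8%, 18.6%, 17.4%, 17.4% and 16.5% of summed FPKM, a scale on which most nuclear subunits are divided by more than their canonical transcript and the mitochondrial ones are not. Of the 13, 10 had a lower mean and 3, MT-ND1, MT-ND3 and MT-CO1, a higher mean in si-circVAMP3, the sign for MT-ND1 and MT-CO1 changing in some alternative settings, and by limma 1 passed the test, while 3 had an unadjusted p under 0.05, all lower. In limma voom on whole reads, an alternative chosen after the data were seen, 0 were higher and 3 lower.

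MT-ATP8, a membrane subunit of complex V, was the member that passed, at 2549, 2475 and 2419 FPKM in si-SCR and 2098 and 2209 in si-circVAMP3 (log2 fold change -0.20, SE 0.05, limma adjusted p = 0.024). It kept this call in 10 of 15 alternative settings and lost it, among others, without si-SCR 1, si-SCR 2, si-circVAMP3 1 or si-circVAMP3 2. The value is uncertain, since MT-ATP8 ends inside MT-ATP6: the genes share 46 of its 207 bases, at chrM:8527-8572 on the plus strand, and reads there fit both. The shared stretch, with the start codon of MT-ATP6 in capitals, shows the overlap.
MT-ATP8 and MT-ATP6: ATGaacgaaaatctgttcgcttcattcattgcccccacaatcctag
MT-ATP6, the channel subunit read from the same mRNA, was at 5092, 5897 and 5374 and at 5137 and 4728, with overlapping groups (-0.14, SE 0.08). MT-ND4L and MT-ND4 share 7 bases in the same manner.

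For MT-CYB, the only subunit of complex III from this genome, the groups did not overlap, at 3066, 3598 and 3382 FPKM in si-SCR and 2909 and 2912 in si-circVAMP3, but it did not pass the test (log2 fold change -0.20, SE 0.07, limma adjusted p = 0.080). It passed in 3 of 15 alternative settings. MT-ND4L, at 2162, 2037 and 2075 and at 1973 and 1764, was similar (-0.16, SE 0.06, limma adjusted p = 0.088) and passed in 2. The 3 catalytic and membrane subunits of complex IV were near 0: MT-CO1 at 6045, 6102 and 5259 and at 6389 and 5517 (0.04), MT-CO2 at 8371 to 9384 (-0.06) and MT-CO3 at 9486 to 10184 (-0.03). The other complex I genes, MT-ND6 apart, lay between -0.16 for MT-ND2 and 0.11 for MT-ND3, with MT-ND1 at 0.05, MT-ND4 at -0.11 and MT-ND5 at -0.13.

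MT-ND6, the single subunit encoded on the opposite strand, had the lowest level of the 13. It was at 141, 93.1 and 90.6 FPKM in si-SCR and at 86.4 and 86.8 in si-circVAMP3. The difference in means came from si-SCR 1, since si-SCR 2 and 3 were within a few FPKM of the other group. The log2 fold change was -0.29 (SE 0.18, limma adjusted p = 0.27), and over the leave-one-out and other settings between -0.40 and -0.08.

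The ribosomal RNAs of the same genome are not members, and they fell further than any mitochondrial mRNA. MT-RNR1, the 12S rRNA, was at 1718, 1764 and 2056 FPKM in si-SCR and 1087 and 1046 in si-circVAMP3 (log2 fold change -0.79, SE 0.08, limma adjusted p = 0.0014). MT-RNR2, the 16S rRNA, was at 6928, 7005 and 7839 and at 5036 and 4673 (-0.58, SE 0.07, limma adjusted p = 0.0028). Their share of reads was 1.26%, 1.26% and 1.42% in si-SCR and 0.886% and 0.830% in si-circVAMP3. The libraries were made from poly-A RNA, so these values hold only the rRNA carried through that step, and whether its carry-over differed between groups was not tested.

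**Figure D4:**
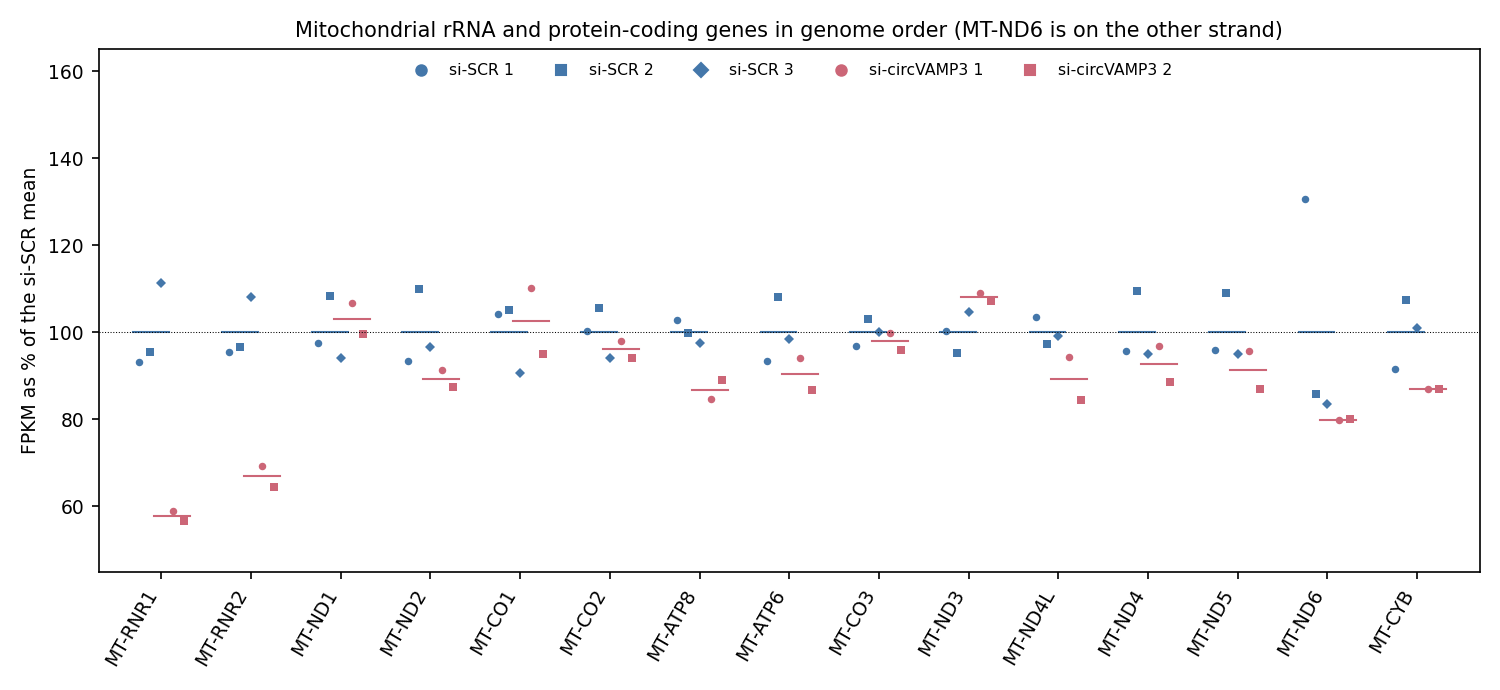
FPKM of the 2 rRNA genes and 13 protein-coding genes of the mitochondrial genome in each library, as a percentage of the mean of the 3 si-SCR libraries (y axis; the dotted line is 100%), in genome order. Short lines are group means; both rRNAs lie far below 100% in both si-circVAMP3 libraries (changes of the mean of -42.2% and -33.1%), while the protein-coding genes lie between -20.1% for MT-ND6, where si-SCR 1 stands alone, and 8.09% for MT-ND3.

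Copies of mitochondrial genes in the nuclear genome can take reads from them. MTATP6P1 was at 904, 987 and 900 FPKM in si-SCR and at 868 and 871 in si-circVAMP3, and MTCO1P12 at 27.3 to 45.3. How far these reads come from MT-ATP6 and MT-CO1 was not tested.

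Summed over genes, both genomes' contributions differed little between the groups. The 79 nuclear subunits summed to 4877, 4838 and 5173 FPKM in si-SCR and 5032 and 5117 in si-circVAMP3, and the 13 mitochondrial subunits to 49459, 52865 and 48876 and to 49500 and 46685. Their ratio was 10.1, 10.9 and 9.45 in si-SCR and 9.84 and 9.12 in si-circVAMP3. The groups overlapped in all 3 quantities, for the nuclear sum and the ratio through si-SCR 3 alone. By complex, the mitochondrial sums of complex III (3066, 3598 and 3382 against 2909 and 2912) and complex V (7641, 8372 and 7793 against 7235 and 6938) did not overlap, whereas those of complex I and complex IV did. The nuclear sums of complexes I, III, IV and V overlapped in all 4 cases, for III, IV and V through si-SCR 3 alone, without which si-circVAMP3 lay above.

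Other genes of the pathway were described by lists. Complex II, which has no member by the rule, had 1 of 4 genes called: SDHB, the iron-sulfur subunit, at 45.2, 45.2 and 43.6 FPKM in si-SCR and 48.1 and 50.5 in si-circVAMP3 (log2 fold change 0.14, SE 0.04, limma adjusted p = 0.046). SDHB kept this call in 5 of 15 alternative settings, and in none with a library left out. Scaled to the sum outside the mitochondrial genome, complex II had 0 genes higher and 1 lower by limma. Of 12 genes for coenzyme Q and cytochrome c, 2 rose and 2 fell, with a median log2 fold change of 0.01; with libraries left out 0 to 1 rose, and scaled to the sum outside the mitochondrial genome 0 rose and 3 fell. COQ2, which attaches the side chain of coenzyme Q, was at 10.6, 10.7 and 11.6 and at 4.73 and 4.61 (-1.15, SE 0.06, limma adjusted p = 0.00016). COQ7, a hydroxylase of the same route, was at 7.98, 7.97 and 8.10 and at 5.69 and 5.78 (-0.45, SE 0.05), while the kinase-like COQ8B rose, at 2.94, 3.22 and 2.66 and at 3.54 and 3.99 (0.31, SE 0.09), a call it kept in 7 of 14 alternative settings.

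Assembly factors of the complexes were counted by complex. For complex I, 1 of 16 rose (TMEM70, log2 fold change 0.35, SE 0.05) and 2 fell (NUBPL -0.34, SE 0.07, and NDUFAF3 -0.33, SE 0.06). For complex III, 0 of 6 rose by limma, with 1 at an unadjusted p under 0.05 and 1 in limma voom, and 1 fell (LYRM7 -0.20, SE 0.06, limma adjusted p = 0.0499, kept in 8 of 15 alternative settings). For complex IV, 4 of 23 rose and 2 fell: SURF1, mutated in Leigh syndrome, was at 14.4, 13.5 and 14.6 FPKM in si-SCR and 9.88 and 9.94 in si-circVAMP3 (-0.49, SE 0.05, limma adjusted p = 0.0015), COA4 was lower (-0.43, SE 0.07) and COX16 higher (0.40, SE 0.06). For complex V, 1 of 5 rose (OXA1L 0.20, SE 0.06) and 1 fell (ATPAF1 -0.30, SE 0.05). The medians were 0.07, -0.05, -0.01 and -0.09. With libraries left out, complex I had 1 to 2 higher and 0 to 2 lower, complex III 0 to 1 in both directions, complex IV 1 to 4 higher and complex V 0 to 1 higher.

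Genes that copy and transcribe mitochondrial DNA also moved both ways, 2 of 13 up and 2 down (2 to 3 and 1 to 2 with libraries left out), with a median log2 fold change of 0.11. TFAM, which packs mitochondrial DNA and starts its transcription, was at 14.6, 14.2 and 14.6 FPKM in si-SCR and 18.0 and 18.4 in si-circVAMP3 (0.32, SE 0.04, limma adjusted p = 0.0033), and TFB2M, the initiation factor, was higher as well (0.33, SE 0.04). POLG, the mitochondrial DNA polymerase, was at 10.5, 10.3 and 10.6 and at 7.67 and 7.46 (-0.44, SE 0.05, limma adjusted p = 0.0015). Of 19 genes that process or stabilise mitochondrial RNA, 4 rose and by limma 0 fell, with 1 lower at an unadjusted p under 0.05 and 1 in limma voom, and the median was 0.12. With libraries left out 1 to 5 rose. Scaled to the sum outside the mitochondrial genome, 2 were higher and 1 lower. They included LRPPRC, which stabilises mitochondrial mRNAs, at 30.2, 30.0 and 31.3 and at 37.1 and 36.7 (0.27, SE 0.04), FASTKD3 (0.31, SE 0.07) and TRMT10C (0.16, SE 0.04). Of 9 transcription factors and coactivators of mitochondrial biogenesis 1 rose (PPRC1, 0.17, SE 0.04) and 1 fell (TFEB, -0.39, SE 0.10), with a median of -0.12. TFEB was at 1.19, 1.21 and 1.11 FPKM in si-SCR and at 0.678 and 0.879 in si-circVAMP3, so it passed the filter on low values through si-SCR alone. These counts were 2 and 4 in limma voom, 0 and 2 without an intensity trend or scaled to the sum outside the mitochondrial genome, and 0 to 2 and 0 to 1 with libraries left out. PPARGC1A, lower in limma voom and without an intensity trend, also passed the filter through si-SCR alone. Of the 29 genes called among these lists and the muscle markers, 12 passed the test in all 15 alternative settings and 0 changed direction in any.

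Both ribosomes served as neighbours for comparison. Of 77 genes for mitochondrial ribosomal proteins, 15 rose and 10 fell (median log2 fold change 0.04), and of 81 for cytosolic ribosomal proteins 63 rose and 2 fell (median 0.25). The largest changes among those called were -0.65, -0.51 and 0.35 for MRPL37, MRPL35 and MRPS12, and 0.46, 0.42 and 0.42 for RPL37, RPS18 and RPS9. Scaled to the sum outside the mitochondrial genome these medians were -0.002 and 0.20, and the mitochondrial ribosomal proteins were then 8 higher and 17 lower. With libraries left out the mitochondrial ones had 1 to 18 higher and 2 to 10 lower, and the cytosolic ones 19 to 66 higher and 1 to 2 lower. The difference between these lists and the respiratory chain was not tested.

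Promoters were compared by the letters they hold, as a feature the rule did not use. RefSeq promoters (GRCh38.p14, 300 bases around the start) were matched by symbol for 63 of the 79 nuclear subunits. The NRF1 core CGCATGCG, searched on both strands, was in the promoters of 10 of 63 subunits (15.9%), of 4.91% of 8710 genes tested and in 2.02% of all 35116 promoter windows. The ETS letters CCGGAAGT were found for 11 (17.5%), against 11.2% of genes tested and 4.14% of windows, and the YY1 letters AAGATGGC for 11 (17.5%), against 7.26% and 2.89%. No string contains another. ATP5PF held each of the 3. A match is not a bound site, and binding was not measured here.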

How the data were processed

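Poly-A RNA of RH4 cells was sequenced in 3 si-SCR and 2 si-circVAMP3 libraries, grouped by the labels. Per the submitters' processing notes and the study's methods, the authors used bcl2fastq 2.20.0.422, Trimmomatic, STAR 2.5.2b, HTSeq (strand-specific) and edgeR on GRCh38 with Ensembl release 99 genes. The deposited values are FPKM, which the authors computed with edgeR from gene counts after a filter on low counts. Whole reads came out for 100.0% of values (tolerance 0.001) with gene lengths that equal the union of annotated exons for 68.8% of 13822 genes. A check for whole numbers cannot see a common factor. The reads of si-circVAMP3 1 were even for every subunit, so limma voom may have given this library 2 times its depth. Symbols were matched for 13783 gene IDs, and biotypes, transcripts and coordinates came from GENCODE release 44. The study's count model was replaced, since FPKM are not counts: limma 3.58.1 (R 4.3.3) was fitted on log2(FPKM + 0.5) with an intensity trend, to genes with FPKM of at least 1 in 2 libraries or more, with Benjamini-Hochberg adjustment over 11253 genes and a threshold of 0.05. Fold changes are on that log2 scale, which understates low genes. The fit was first run on simulated data with 200 changed genes and noise drawn for each gene alone. These held no shift of a whole library like that of si-SCR 3, so they cannot vouch for the calls under such a shift. Python 3.11.15, pandas 2.3.3 and numpy 2.4.6 made the summaries. Alternatives were other pseudocounts, filters, scalings, no trend, a replicate block, each library left out and limma voom on whole reads, the last chosen after the data were seen. The replicate block gives the fold changes of the fit without si-SCR 3, so these are not separate checks.

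Named genes were all mitochondrial members, nuclear members past the threshold, the 3 highest nuclear members of each complex, members with near-identical or tissue-specific partners, up to 3 called genes of each list with the largest change, and the markers. Beyond this rule, members with a match to the siRNA seed, with GC-rich mRNAs or of known role in a complex were named after their values were seen. Members and lists were chosen with earlier results of these data known, so counts are descriptions, read beside those over all genes tested.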

Additional observations from a re-analysis of the deposited data

How the results depend on the processing

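Counts of nuclear subunits (7 higher, 9 lower) stayed within 1.5 times of these values for both other pseudocounts, both other filters, the median-ratio scaling, the scaling to all genes and limma voom (9 higher, 10 lower). They were 4 and 4 without an intensity trend, 4 and 13 when scaled to the sum outside the mitochondrial genome, and, with each library left out in turn, 0 to 15 higher and 2 to 7 lower. Leaving out a si-circVAMP3 library leaves the other assumed to vary like si-SCR. Mitochondrial subunits (0 higher, 1 lower) had 3 lower when scaled to the sum outside the mitochondrial genome and in limma voom on whole reads, chosen after the data were seen, and 0 to 1 lower with libraries left out. The median log2 fold change of nuclear subunits moved from -0.003 to -0.049 under that scaling and ranged from -0.034 to 0.032 with libraries left out, and that of mitochondrial subunits ranged from -0.17 to -0.059 with libraries left out. The log2 ratio of summed nuclear FPKM went from 0.032 to -0.015 under the same scaling, where all genes tested had a median of -0.03 and 1252 higher against 2334 lower, beside 1790 and 1887. Without si-circVAMP3 1 all genes tested gave 530 higher and 846 lower, and without si-circVAMP3 2, 492 and 775. Without si-SCR 2 they gave 989 and 1211. The causes of these shifts were not tested. With a replicate block, 10 nuclear subunits were higher and 4 lower and 0 mitochondrial subunits lower. Replicate 3 exists in si-SCR alone, so this setting gives the same fold changes as leaving out si-SCR 3. Same-numbered libraries did not deviate together (correlation -0.17 for number 1 and -0.05 for number 2). Deviations of the 2 si-circVAMP3 libraries from their mean mirror each other, so these values cannot decide whether the numbers pair the libraries. Outside si-circVAMP3 1, whose recovered reads may be 2 times too high, mitochondrial subunits had 1186 to 248633 reads a library. The lowest value of a tested nuclear subunit was 37 reads, in si-SCR 1.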

Other observations

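Exon overlap is uneven among the subunits: 55 of 79 nuclear members share no base with another annotated gene on the same strand, and 0 share over 50% of their exon bases. Within si-SCR the median coefficient of variation was 5.69% over nuclear and 7.48% over mitochondrial subunits.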
